A study of Mus musculus with 55 samples.

Results

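The macrophages of the islet were followed through 10 of their genes, some of them shared with other immune cells: Lyz2, Cd68, Ptprc, Adgre1, Csf1r, C1qa, C1qb, C1qc, Itgam and Cd74. They were taken by name from the 47937 genes counted in whole-islet RNA, and all 10 had enough reads to be tested and were detected in all 16 libraries. In islets lacking Eed in β cells, the fold change over wild type was above 0 for all 10 genes at 8 weeks and at 25 weeks of age. Only Ptprc and Cd74 at 25 weeks passed the test across all genes. The size of the difference varied between libraries of the same genotype and age, with a median ratio to the wild-type mean over the 10 genes from 0.961 to 3.33.

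Macrophages live inside every islet, close to the capillaries, where they sample secretory granule products and present antigen. They depend on signalling through the CSF1 receptor and make most of the C1q found in tissues. Ptprc encodes CD45, carried by all leukocytes, and Cd74 encodes the invariant chain that escorts MHC class II molecules, so those genes also report on other immune cells. Adgre1 (F4/80) and Csf1r are more restricted to macrophages. Itgam encodes the integrin CD11b, which is also high on monocytes and neutrophils. Lyz2 encodes lysozyme and Cd68 a glycoprotein of the lysosomal membrane. Eed is a core subunit of PRC2, the complex that deposits H3K27me3.

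Islets came from male C57B6/J mice and were labelled wild type (3 libraries at 8 weeks and 3 at 25 weeks), heterozygous (3 and 2) or Eed -/- (3 and 2). The last, here βEedKO, carried floxed Eed alleles and a Cre transgene driven by the rat insulin promoter, so the deletion was directed to β cells and leaves the gene in macrophages. Islets were isolated with collagenase, picked by hand and kept in culture medium before RNA extraction. A library held the islets of a small number of animals, and each βEedKO library at 25 weeks was a larger pool. The labels do not say whether the floxed alleles or the transgene were present in the wild-type and heterozygous controls. In RNA from whole islets, more macrophages and more RNA per macrophage cannot be told apart, and a loss of β cell RNA raises the share of every other cell.

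Total counts ranged from 4645393 to 22925359 reads per library. Levels are given as CPM, counts per 1000000 reads with TMM scaling. Eed had 19.3 to 33.1 CPM in the 6 wild-type libraries and 13.4 to 15.6 CPM in the 5 βEedKO libraries. Its fold change was -1.04 ± 0.22 at 8 weeks (log2 ± SE, adjusted p = 0.0881, edgeR) and -0.69 ± 0.25 at 25 weeks (adjusted p = 0.142). Insulin and glucagon reads made up 1.80% and 3.91% of the βEedKO libraries at 25 weeks and 10.1% to 21.3% of the others. The summed level of 8 acinar markers, genes of exocrine tissue, was 376040 CPM in βEedKO replicate 2 and 11508 CPM in replicate 3 at 25 weeks. It was 206870 CPM in wild-type replicate 4 at 25 weeks, and 185890 CPM in wild-type and 151260 CPM in heterozygous replicate 1 at 8 weeks. The rest had at most 81669 CPM. A set of 12 interferon-induced genes summed to between 3458 and 5353 CPM in wild-type replicates 3 and 4 and βEedKO replicates 4 and 5 at 8 weeks, and to at most 193 CPM in every other library.

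Most of these genes started outside active chromatin of whole islets. The segmentation of wild-type islet chromatin gives each bin of 200 bp 1 of 24 state letters. β cells make up most of an islet, and the segmentation does not separate them from macrophages. No member started in the active start states A or B, which held 37.8% of 25640 annotated genes. Of the 10, 5 started in the Polycomb states N, O or P, where 20.4% of genes did. Lyz2 (chromosome 10 from 117277331 to 117282321 on GRCm38), C1qb (chromosome 4 from 136880129 to 136886187) and C1qc (chromosome 4 from 136889804 to 136893065) were in state O. Adgre1 (chromosome 17 from 57358691 to 57483527) and Itgam (chromosome 7 from 128062640 to 128118491) were in state N. Lyz2 lay in state O and Itgam in state N throughout the 2000 bases on each side of the start.

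The other 5 starts were mixed. Ptprc (chromosome 1 from 138062861 to 138175708) started in state Q, which mixes weak Polycomb and H3K9 marks. Cd74 (chromosome 18 from 60803848 to 60812652) and Csf1r (chromosome 18 from 61100598 to 61132149) started in the quiescent state X. For Csf1r the starts of its transcripts in the basic annotation lay in state O, which brings the Polycomb count to 6. Cd68 (chromosome 11 from 69664213 to 69666153) and C1qa (chromosome 4 from 136895917 to 136898803) were the exceptions. Cd68 started in state F and C1qa in state D, both of the group of regulatory and transcribed states. The segmentation is 1 map with replicates averaged, so no error can be given for these states.

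**Figure D1:**
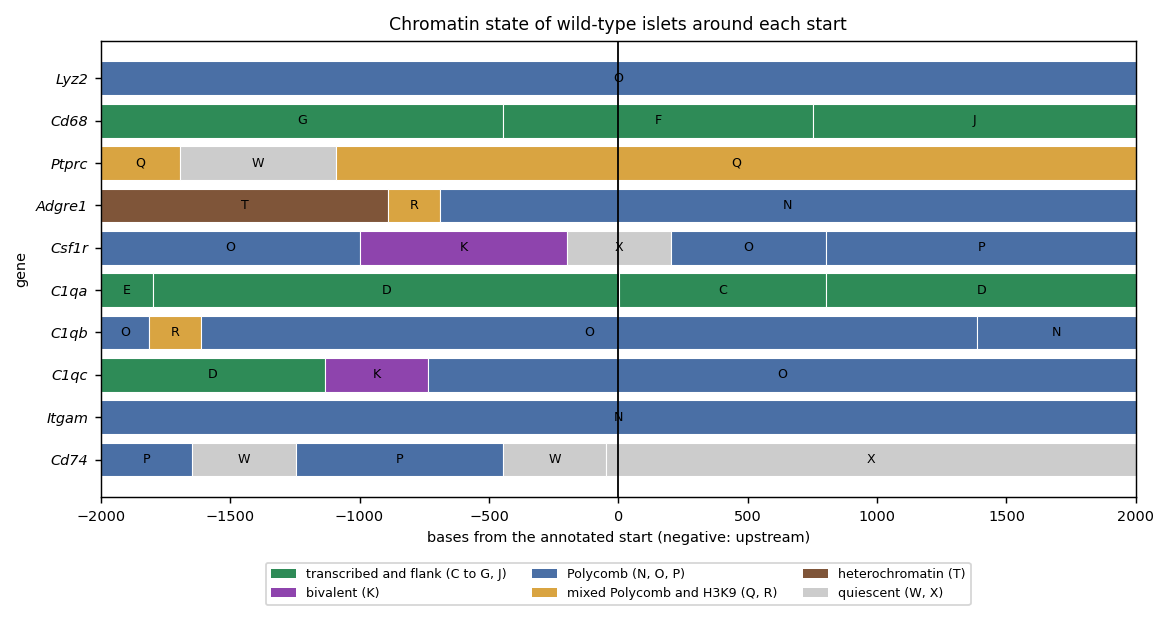
Chromatin state of wild-type islets around the annotated start of each gene, with bases from the start on the x axis, 1 row per gene, and segments coloured by class and marked with their state letter. Lyz2 and Itgam lie in 1 Polycomb state throughout, whereas the windows of Cd68 and C1qa hold regulatory and transcribed states only.

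The C1q genes stand next to each other on chromosome 4 and encode the chains A, B and C of 1 protein, yet they differed in start state. With positions counted in bases from each start, C1qa lay in state D from -1797 to its start, with state C just beyond it. At C1qc state O began at -735, after the bivalent state K from -1135 to -736 and state D further upstream, on the side that faces C1qa. C1qb lay in state O from -1613 to 1386.

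The bases before the start are shown for the genes that RefSeq's table for GRCm38.p6 holds and whose upstream bases lie before both the RefSeq and the annotated start. They set the Polycomb-state starts of C1qb, C1qc, Lyz2 and Itgam beside that of Cd68. Capitals mark GAGGAA and AGGAAG, letters found in many binding sites of the ETS factor PU.1, encoded by Spi1, on either strand. The motifs overlap where they share AGGAA.
C1qb: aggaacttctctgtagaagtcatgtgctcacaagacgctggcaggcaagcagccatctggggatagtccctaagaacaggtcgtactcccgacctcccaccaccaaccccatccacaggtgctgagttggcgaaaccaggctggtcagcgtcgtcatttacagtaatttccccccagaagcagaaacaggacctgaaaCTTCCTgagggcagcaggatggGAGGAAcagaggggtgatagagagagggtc
C1qc: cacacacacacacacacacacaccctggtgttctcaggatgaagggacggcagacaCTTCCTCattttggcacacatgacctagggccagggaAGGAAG
Lyz2: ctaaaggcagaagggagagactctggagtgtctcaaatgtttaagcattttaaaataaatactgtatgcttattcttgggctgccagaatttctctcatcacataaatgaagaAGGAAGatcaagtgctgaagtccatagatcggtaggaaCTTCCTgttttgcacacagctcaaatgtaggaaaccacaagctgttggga
Itgam: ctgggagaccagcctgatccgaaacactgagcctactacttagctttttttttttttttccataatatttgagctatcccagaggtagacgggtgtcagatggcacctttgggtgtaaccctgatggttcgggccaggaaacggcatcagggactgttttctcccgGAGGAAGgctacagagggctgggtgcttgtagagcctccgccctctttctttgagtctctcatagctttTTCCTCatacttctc
Cd68: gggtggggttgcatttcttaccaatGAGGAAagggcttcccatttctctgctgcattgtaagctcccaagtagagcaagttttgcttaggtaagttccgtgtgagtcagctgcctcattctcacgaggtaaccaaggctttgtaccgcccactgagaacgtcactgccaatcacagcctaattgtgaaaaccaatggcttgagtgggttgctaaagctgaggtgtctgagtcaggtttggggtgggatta

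These are chr4:136886201-136886450 for C1qb, chr4:136893066-136893164 for C1qc, chr10:117282322-117282522 for Lyz2 and chr11:69666171-69666420 for Cd68, all on the minus strand, and chr7:128062390-128062639 for Itgam on the plus strand. The letters were searched on both strands in windows of 300 bases, 250 before and 50 after each RefSeq start. The table held 6 of the 10 genes by symbol (these 5 and Ptprc), and each of the 6 had at least 1 match to either motif. At least 1 match was present in 46.0% of the 32851 windows of the table. AGGAAG was found in 5 of the 6 genes and in 35.4% of all windows, and Cd68 was the gene without it. GAGGAA was found in 5 of the 6 and in 28.3% of all windows, and Lyz2 was the gene without it. A match is a string of letters, and no factor binding was measured here.

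Levels between genes were compared per kilobase of exon, over the 6 wild-type libraries of both ages. Cd74 was the highest at a median of 67.2 CPM per kb (range 43.5 to 99.0). C1qa followed at 27.3 (24.7 to 44.0) and Lyz2 at 19.6 (5.15 to 57.5), and their ranges overlapped. C1qb had a median of 8.58, Cd68 of 5.31 and C1qc of 3.70 CPM per kb, and each overlapped its neighbours. Csf1r had 2.25, Adgre1 1.06, Ptprc 0.350 and Itgam 0.105 CPM per kb. Adgre1 (lowest 0.622) and Ptprc (highest 0.583) were the only neighbours in this order whose ranges did not overlap. Cd74 and C1qa overlapped narrowly, with 43.5 as the lowest value of Cd74 and 44.0 as the highest of C1qa, and so did Ptprc (lowest 0.252) and Itgam (highest 0.260). The Ptprc level per kb is lowered by the 18.3 kb of exon in its annotated models, the longest among these genes. The reads for Itgam ran from 4 to 108 per library, so its values rest on few counts. Gm49368, a protein-coding gene on the same strand, overlaps Itgam over 55809 bp. It had a mean of 0.125 reads per library against 17.2 for Itgam. Whether reads that fit both genes were left out of the counts was not tested.

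**Figure D2:**
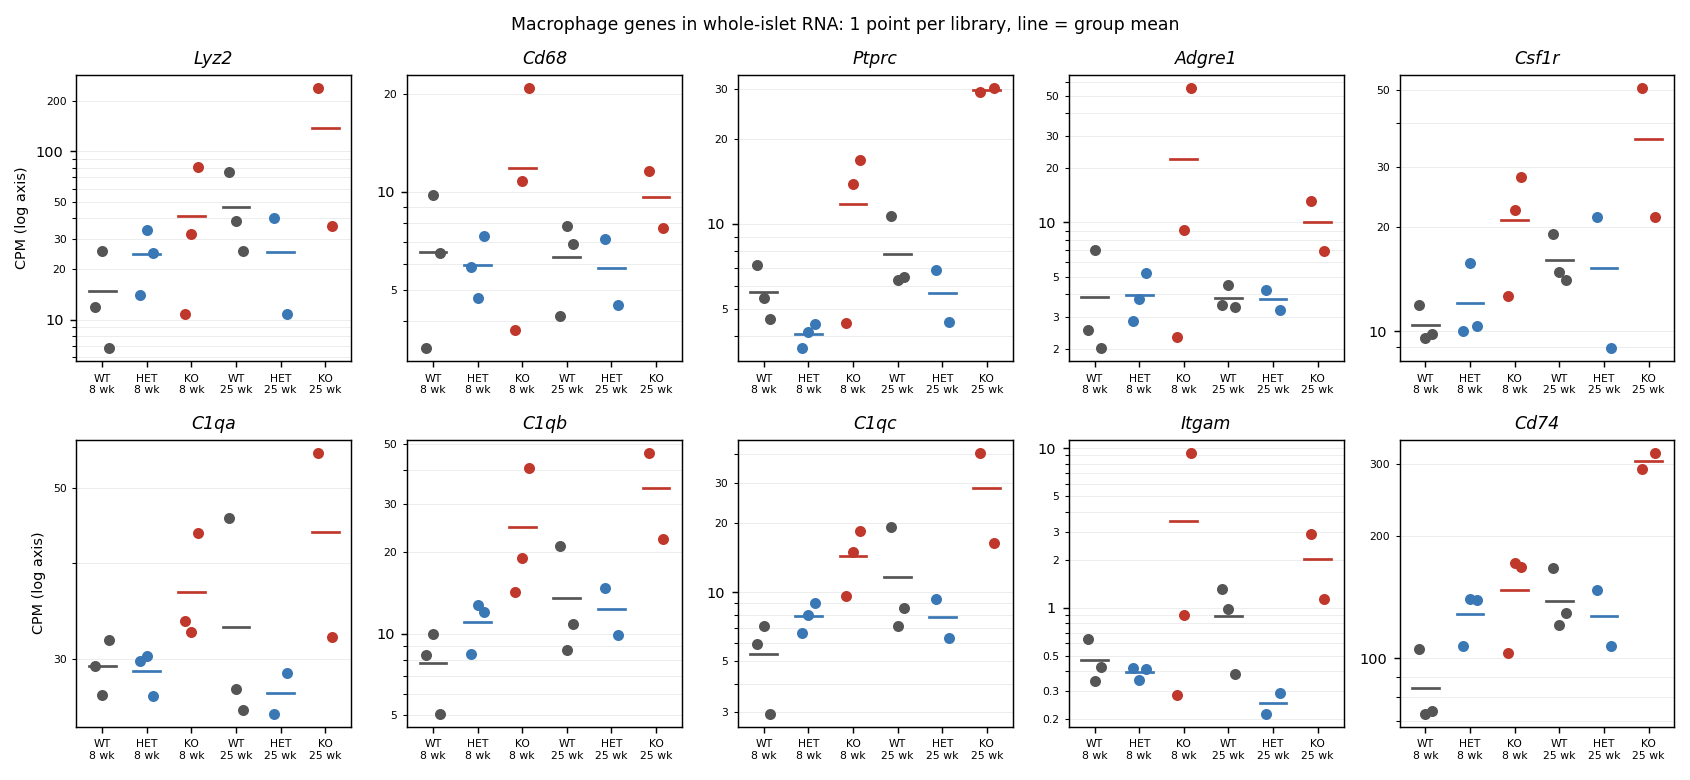
Level of each gene in CPM on a log axis in the 16 libraries, with 1 point per library, a line at the group mean, wild type (WT) in grey, heterozygous (HET) in blue and βEedKO (KO) in red. The highest value of every gene is in a βEedKO library. At 8 weeks the βEedKO libraries are spread more widely on this axis than the wild-type libraries for most genes. At 25 weeks, with 2 βEedKO and 3 wild-type libraries, the βEedKO spread is wider only for Lyz2, Adgre1 and Csf1r.

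Ptprc, the leukocyte phosphatase CD45, separated the genotypes most clearly at 25 weeks. It had 10.7, 6.32 and 6.50 CPM in wild-type replicates 2, 3 and 4, 6.86 and 4.49 CPM in heterozygous replicates 1 and 2, and 29.4 and 30.4 CPM in βEedKO replicates 2 and 3. Both βEedKO libraries were above all others of that age and close to each other. The log2 fold change was 1.90 ± 0.48 (SE), or 3.72-fold, with an adjusted p of 0.0420 (edgeR, quasi-likelihood test). At 8 weeks Ptprc had 7.17, 5.47 and 4.61 CPM in wild-type replicates 1, 3 and 4 and 4.46, 13.8 and 16.9 CPM in βEedKO replicates 1, 4 and 5. There βEedKO replicate 1 fell below all wild-type libraries while the other two were above them, and the log2 fold change of 1.04 ± 0.44 did not pass (adjusted p = 0.591).

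Cd74, the invariant chain, was the other gene called higher at 25 weeks. It had 166, 120.3 and 129 CPM in wild-type replicates 2, 3 and 4, 147 and 107 CPM in heterozygous replicates 1 and 2, and 292 and 320.0 CPM in βEedKO replicates 2 and 3. As for Ptprc, the 2 βEedKO libraries lay together above every control. The log2 fold change was 1.09 ± 0.28, or 2.13-fold (adjusted p = 0.0459, edgeR). The part of acinar RNA, in which these 2 libraries differed widely, was not tested. The fit without acinar-rich libraries given below leaves out βEedKO replicate 2 and cannot tell acinar RNA from the loss of that library. At 8 weeks Cd74 had 105, 73.0 and 74.1 CPM in wild type and 103, 171 and 168 CPM in βEedKO, in the replicate order given for Ptprc. The groups overlapped through replicate 1, and the log2 fold change was 0.82 ± 0.26 (adjusted p = 0.347).

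Csf1r, the receptor for CSF1 and IL-34 on which macrophage survival depends, did not overlap between the genotypes at either age. At 8 weeks it had 11.9, 9.54 and 9.80 CPM in wild type and 12.7, 22.5 and 27.9 CPM in βEedKO. By 25 weeks its level was 19.2, 14.8 and 14.1 CPM in wild type and 50.8 and 21.4 CPM in βEedKO. The lowest βEedKO library stood only just above the highest wild-type library at each age. The log2 fold changes were 1.02 ± 0.37 (adjusted p = 0.467) and 1.13 ± 0.40 (adjusted p = 0.137). Csf1r overlaps Hmgxb3 on the opposite strand over 873 bp, and a library kit that does not mark strand cannot separate their reads there. Hmgxb3 had a mean of 498 reads per library and Csf1r 277.

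Adgre1, the macrophage surface receptor F4/80, was highest in a single library. At 8 weeks it had 2.54, 7.04 and 2.01 CPM in wild type and 2.32, 9.03 and 55.6 CPM in βEedKO, and replicate 5 stood far above every other library. At 25 weeks the βEedKO values of 13.1 and 6.94 CPM lay above the wild-type values of 3.49, 4.51 and 3.40 CPM. The log2 fold changes of 2.53 ± 0.95 at 8 weeks (adjusted p = 0.503) and 1.33 ± 1.02 at 25 weeks (adjusted p = 0.519) had wide errors.

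Itgam, the integrin CD11b, followed the same libraries at a far lower level. It had 0.634, 0.349 and 0.424 CPM in wild type and 0.285, 0.903 and 9.35 CPM in βEedKO at 8 weeks. The levels at 25 weeks were 1.31, 0.978 and 0.387 CPM in wild type, 0.218 and 0.292 CPM in heterozygous islets, and 2.89 and 1.13 CPM in βEedKO. The groups of wild type and βEedKO overlapped at both ages. Log2 fold changes were 2.89 ± 1.12 (adjusted p = 0.525) and 1.17 ± 1.19 (adjusted p = 0.654).

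Lyz2, lysozyme, had the widest range after Itgam, 35.2-fold between its lowest and highest library. It had 11.9, 25.7 and 6.78 CPM in wild type and 10.8, 32.2 and 81.2 CPM in βEedKO at 8 weeks. By 25 weeks the levels were 75.7, 38.6 and 25.8 CPM in wild type and 239 and 36.0 CPM in βEedKO, so that replicate 2 was far above and replicate 3 inside the wild-type range. Log2 fold changes were 1.49 ± 0.85 (adjusted p = 0.760) and 1.52 ± 0.91 (adjusted p = 0.396). Without βEedKO replicate 2 the value at 25 weeks was -0.44. Reads that fit both Lyz2 and its near-identical neighbour Lyz1 could be assigned to neither or to the wrong gene. Lyz1 had at most 11.0 CPM in every library except βEedKO replicate 3 at 25 weeks, where it had 181 CPM.

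Cd68, the lysosomal membrane glycoprotein, followed the other genes least over the 16 libraries. It had 3.30, 9.77 and 6.46 CPM in wild type and 3.75, 10.8 and 20.9 CPM in βEedKO at 8 weeks. Its 25-week levels were 4.14, 7.83 and 6.88 CPM in wild type and 11.6 and 7.71 CPM in βEedKO. The groups overlapped at both ages, and the log2 fold changes were 0.85 ± 0.59 (adjusted p = 0.821) and 0.55 ± 0.65 (adjusted p = 0.711). Eif4a1, a translation initiation factor gene with a mean of 3794 reads per library against 121 for Cd68, ends 783 bp upstream on the same strand. Whether any of its reads were counted as Cd68 was not tested.

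The chains of C1q, the recognition protein of the classical complement pathway, did not move alike. C1qb had 8.37, 9.94 and 5.08 CPM in wild type and 14.2, 19.1 and 40.9 CPM in βEedKO at 8 weeks, and 21.1, 8.73 and 10.9 against 46.4 and 22.4 CPM at 25 weeks. C1qc had 5.96, 7.15 and 2.97 against 9.63, 15.0 and 18.4 CPM at 8 weeks, and 19.2, 7.15 and 8.59 against 40.5 and 16.4 CPM at 25 weeks. All βEedKO libraries were above all wild-type libraries of the same age for C1qb, and for C1qc at 8 weeks but not at 25 weeks. The log2 fold changes at 8 weeks were 1.67 ± 0.50 for C1qb (adjusted p = 0.304) and 1.43 ± 0.50 for C1qc (adjusted p = 0.447). At 25 weeks they were 1.31 ± 0.54 for C1qb (adjusted p = 0.199) and 1.26 ± 0.54 for C1qc (adjusted p = 0.220).

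C1qa was the flattest of the 10 genes, with a 2.19-fold range over all libraries against 9.13-fold for C1qb and 13.6-fold for C1qc. It had 29.4, 26.9 and 31.7 CPM in wild type and 33.6, 32.5 and 43.8 CPM in βEedKO at 8 weeks. Levels at 25 weeks were 45.8, 27.4 and 25.7 CPM in wild type and 55.6 and 32.0 CPM in βEedKO. The groups did not overlap at 8 weeks, but the difference was small, at 0.32 ± 0.28 log2 (adjusted p = 0.883), and it was 0.37 ± 0.32 at 25 weeks (adjusted p = 0.585). The ratio of C1qa to C1qb in CPM fell between 2.71 and 6.24 in wild type at 8 weeks, and was 2.36, 1.71 and 1.07 in βEedKO replicates 1, 4 and 5. The same ratio at 25 weeks was 2.16 to 3.14 in the wild-type libraries and 1.20 and 1.43 in the βEedKO libraries.

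In the library with the highest C1q at 25 weeks, βEedKO replicate 2, the excess over the wild-type mean was 22.7 CPM for C1qa, 32.8 CPM for C1qb and 28.8 CPM for C1qc. As a fold these are 1.69, 3.41 and 3.48, from wild-type means of 33.0, 13.6 and 11.6 CPM. In replicate 3 of that age C1qa had a difference of -0.942 CPM from the wild-type mean, while C1qb and C1qc had an excess of 8.77 and 4.79 CPM. At 8 weeks the excess of C1qa, C1qb and C1qc was 3.16, 11.3 and 9.64 CPM in replicate 4 and 14.4, 33.1 and 13.1 CPM in replicate 5. C1qb had the largest excess of the 3 chains in each of these 4 libraries. C1qb and C1qc had the closest pair of profiles among the 45 pairs of these genes, with a Pearson r of 0.96 over the 16 libraries.

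**Figure D3:**
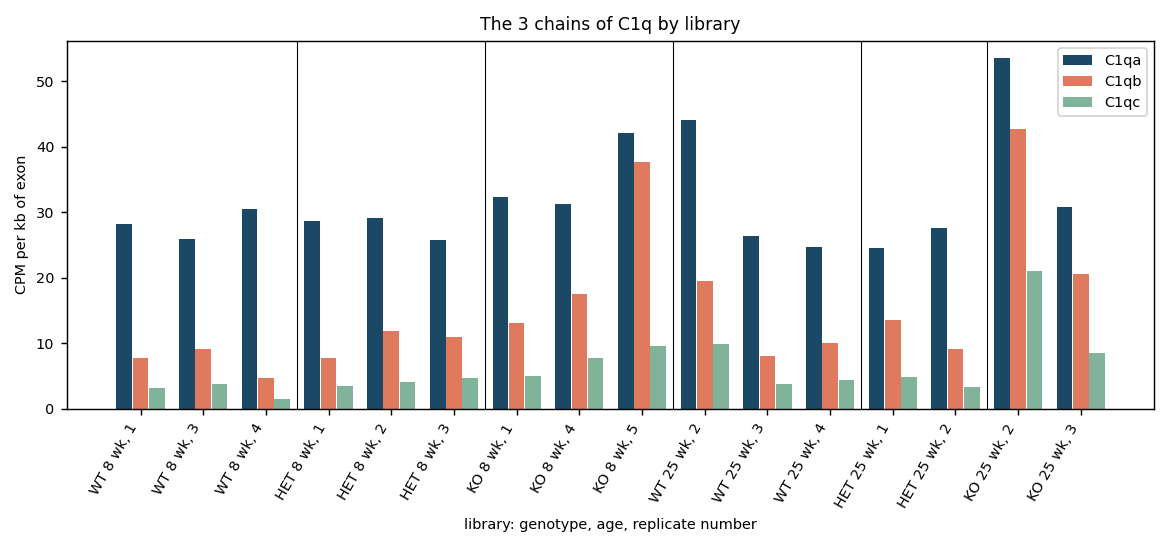
Level of C1qa, C1qb and C1qc as CPM per kb of exon in each of the 16 libraries, with bars from 0 and vertical lines between the groups. C1qa lies between 24.5 and 53.5 CPM per kb in all libraries, whereas C1qb climbs from 4.67 CPM per kb in a wild-type library to 42.7 in βEedKO replicate 2 at 25 weeks.

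Across all genes the comparison at 25 weeks called 856 of 18685 genes higher in βEedKO, 4.58%, and 2 of the 10 macrophage genes were among them. The median log2 fold change of the 10 was 1.22 against 0.029 over all genes tested, and all 10 were above 0 against 51.7% of all genes. At an unadjusted p under 0.05, 5 of the 10 passed, where 2405 of the 18685 genes did with a fold change above 0. For 5 genes (Ptprc, Adgre1, Csf1r, C1qb and Cd74) every βEedKO library was above every wild-type library, as was the case for 24.7% of all genes. Without βEedKO replicate 2, 0 of the 10 were called by edgeR (the library left had to stand for its group, with the spread of the other groups), 8 were above 0 and the median was 0.40. A further fit, chosen after seeing the data, left out the 3 wild-type and βEedKO libraries with over 100000 CPM of acinar markers. These were wild-type replicate 1 at 8 weeks, wild-type replicate 4 at 25 weeks and again βEedKO replicate 2 at 25 weeks. The median was then 0.34.

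Both of these fits left βEedKO replicate 3 as the only βEedKO library at 25 weeks. They are not separate checks and cannot tell acinar RNA from the loss of replicate 2. Ptprc and Cd74 had log2 fold changes of 1.90 and 1.13 without replicate 2 and 1.86 and 1.16 without the acinar-rich libraries. Both calls were also lost without βEedKO replicate 3, without wild-type replicate 3 or 4 at 25 weeks, and without wild-type replicate 3 or 4 or βEedKO replicate 4 at 8 weeks. That of Cd74 was lost without βEedKO replicate 5 at 8 weeks and with library size as the only scaling. With the replicate number as a block, 0 of the 10 were called, at 1.81 for Ptprc (adjusted p = 0.127) and 1.06 for Cd74 (adjusted p = 0.126). With wild type and heterozygous libraries joined as the control, 5 were called, adding Csf1r, C1qb and C1qc.

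At 8 weeks 80 of 18685 genes were called higher, 0.428%, and 0 of the 10 were among them by edgeR. At an unadjusted p under 0.05, 7 of the 10 passed, where 1093 of the 18685 genes did with a fold change above 0. DESeq2 called 1 of the 10, C1qb. The median log2 fold change was 1.23 against 0.0039 over all genes, and all 10 were above 0 where 50.4% of all genes were. For 4 genes (Csf1r, C1qa, C1qb and C1qc) no wild-type library reached the lowest βEedKO library, against 6.54% of all genes. The direction held for all 10 under every alternative tried, while the median ranged down to 0.61 without βEedKO replicate 5. It was 0.62 with the replicate number as a block.

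**Figure D4:**
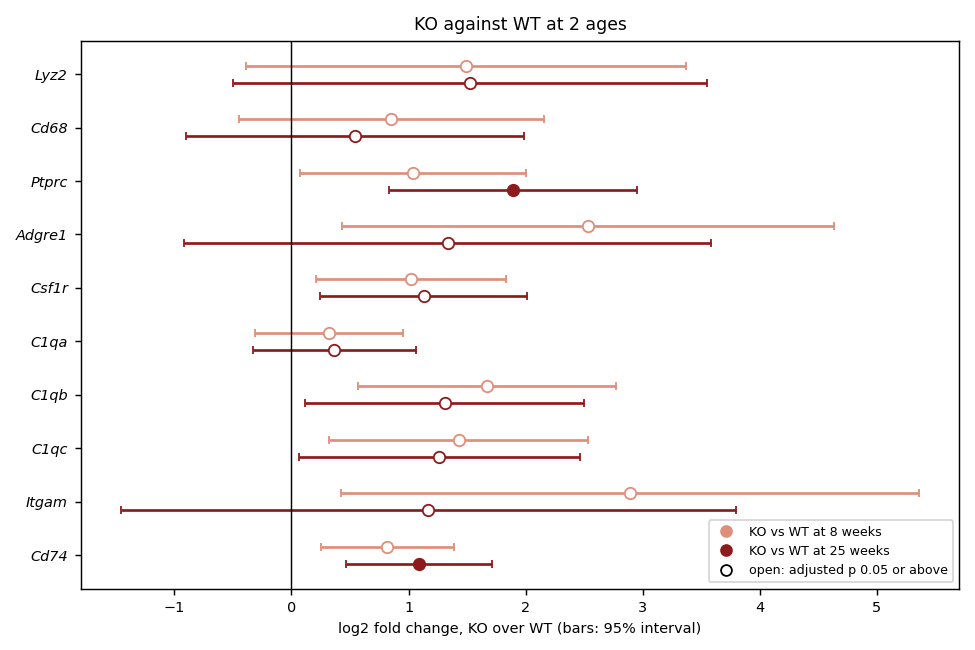
Log2 fold change of βEedKO over wild type with its 95% interval for each gene at 8 weeks (light) and 25 weeks (dark), with filled points for an adjusted p under 0.05. All points lie above 0 and the only filled points are Ptprc and Cd74 at 25 weeks.

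The βEedKO libraries of 1 age were not alike. Relative to the wild-type mean of the same age, replicate 1 at 8 weeks had a median ratio of 0.961 over the 10 genes, with 5 above 1. Replicates 4 and 5 had medians of 2.17 and 3.33 with all 10 above 1, up to 19.9 for Itgam in replicate 5. At 25 weeks replicate 2 had a median ratio of 3.33 with all 10 above 1, and replicate 3 had 1.37 with 8 above 1 and a highest ratio of 3.89, for Ptprc. Replicates 4 and 5 at 8 weeks were also the βEedKO libraries with high interferon-induced genes. In wild type at 8 weeks the mean of the 10 genes' log2 levels, each centred on its mean over the 16 libraries, was -0.58 in replicate 1, low in interferon-induced genes, and -0.32 and -0.94 in replicates 3 and 4, high in them. Without both replicates 1 at 8 weeks, a choice made after seeing the data, the median log2 fold change of that age was 1.67. The part of the interferon signal in these results was not tested beyond this.

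**Figure D5:**
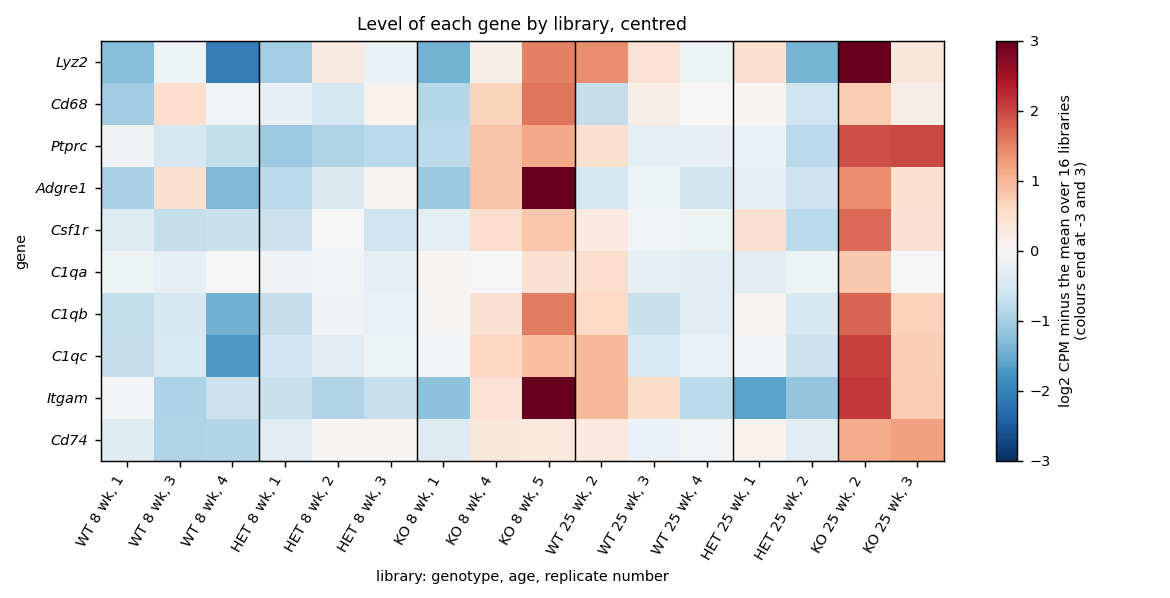
Log2 CPM of each gene in each library after subtracting its mean over the 16 libraries, with genes in rows, libraries in columns, vertical lines between the groups and colours ending at -3 and 3. Red runs through nearly the whole column of βEedKO replicate 5 at 8 weeks and of replicate 2 at 25 weeks, while βEedKO replicate 1 at 8 weeks is pale or blue for most genes.

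The difference between the ages in the effect of the deletion could not be shown for any of the 10 genes. Of 18685 genes, 37 (0.198%) passed the test of that difference, and 0 of the 10 did by edgeR or DESeq2, with 0 at an unadjusted p under 0.05 and adjusted p-values from 0.864 upwards. The estimates at 25 minus 8 weeks ran from -1.72 for Itgam to 0.86 for Ptprc. The interval for Ptprc was -0.57 to 2.29, so a larger effect at 25 weeks and none were both within it.

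Between 8 and 25 weeks, 8 of the 10 were above 0 in wild type, where 49.1% of all genes were, at a median of 0.68. None was called by edgeR or DESeq2 and 1 passed at an unadjusted p under 0.05, Cd74 at 0.73 ± 0.26 (adjusted p = 0.489). edgeR called 0 of 18685 genes (0%) in that comparison, with 1898 at an unadjusted p under 0.05, and DESeq2 called 139. For Lyz2, Csf1r and Cd74 all wild-type libraries at 25 weeks were above those at 8 weeks, as for 7.08% of all genes, with log2 fold changes of 1.65 ± 0.85 for Lyz2 and 0.62 ± 0.37 for Csf1r. In βEedKO, 7 of the 10 were above 0, where 50.5% of all genes were, at a median of 0.58. There 1.02% of genes were called higher and 0 of the 10 by edgeR. At an unadjusted p under 0.05, 1458 of the 18685 genes were higher, and 2 of the 10. These were Ptprc at 1.29 ± 0.47 (adjusted p = 0.245) and Cd74 at 1.00 ± 0.28 (adjusted p = 0.134), the latter called by DESeq2. Their libraries at 25 weeks were all above those at 8 weeks, as for 17.3% of all genes. In both genotypes the libraries high in interferon-induced genes were all at 8 weeks. The part of that signal in the comparisons by age was not tested.

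In heterozygous islets no difference from wild type passed the test in these genes. edgeR called 0 of 18828 genes (0%) at either age, with 2743 and 210 at an unadjusted p under 0.05 at 8 and 25 weeks, where DESeq2 called 407 and 3. Of the 10 macrophage genes 0 were called by either tool, with 1 and 0 at an unadjusted p under 0.05. At 8 weeks Cd74 had 107, 139.7 and 139 CPM in heterozygous replicates 1 to 3, above all wild-type libraries, as for 10.3% of all genes. Its log2 fold change was 0.61 ± 0.24 (adjusted p = 0.289). Ptprc had 3.62, 4.13 and 4.41 CPM, below all wild-type libraries, as for 9.09% of genes, at -0.50 ± 0.40 (adjusted p = 0.547). The median over the 10 was 0.12 at 8 weeks. At that age wild-type replicates 3 and 4 were high in interferon-induced genes and the heterozygous libraries were not. The part of that signal here was not tested. At 25 weeks all 10 were below 0 at a median of -0.20, where 49.6% of all genes were above 0. Itgam was the only gene without overlap there, lower in both heterozygous libraries (log2 fold change -1.72 ± 1.19, adjusted p = 1.00), as for 7.06% of genes.

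Among the 10 genes whose profile over the 16 libraries was most like the mean of the macrophage genes were Emilin2, Ctss, Apbb1ip, Spi1, Clec4a2, Arhgdib, Lpxn and Syk. Their Pearson r ran from 0.956 for Emilin2 to 0.921 for Syk, while the median r of the 18818 genes ranked was 0.0091 and 19 exceeded 0.9. Libraries of 1 group share genotype and age, so r is a description. After subtraction of group means r in these genes was between 0.853 for Lpxn and 0.964 for Apbb1ip. Ctss encodes cathepsin S, which degrades the invariant chain, and Spi1 encodes PU.1, the master regulator of the myeloid lineage. Syk is a tyrosine kinase of leukocyte signalling, and Arhgdib encodes a GDP-dissociation inhibitor of blood cells. By Spearman's rank correlation 5 of the 10 remained, and by deviations from group means 3 did.

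Within the 10, C1qb followed the mean of the others most closely (r = 0.932 over the 16 libraries), and Cd68 (0.660) and C1qa (0.730) least. After subtraction of group means the lowest were C1qa (0.517), Cd74 (0.596) and Cd68 (0.608). Pairs ranged from 0.301 for Cd68 with C1qa to 0.959 for C1qb with C1qc, at a median of 0.721. Cd68 and Adgre1 formed a close pair at 0.886.

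Most other genes of macrophages had fold changes above 0 that did not pass the test. Of 22 further macrophage and myeloid genes, all 22 were above 0 at 25 weeks, against 51.7% of all genes, at a median of 0.97, and 1 was called, the LPS co-receptor gene Cd14 (2.38 ± 0.59, adjusted p = 0.0391). This count is near the 4.58% of all genes called higher. At 8 weeks 21 were above 0 at a median of 1.42, and edgeR called 0, while DESeq2 called 3. At an unadjusted p under 0.05, where 1470 of the 18685 genes passed, 11 of the 22 did. Their most abundant member, Ctss, had 1.47 ± 0.46 (adjusted p = 0.338). Of the 20 of these genes whose start could be assigned, 14 were in states N, O or P and 1, Irf8, in state A. The bivalent states K, L and M held 3 of the 20, among them Cd14 in state M, but 0 of the 10. The quiescent states held 0 of the 20 and 2 of the 10. All 7 MHC class II genes, the partners of Cd74, were above 0 at 25 weeks at a median of 1.36. Of the 7, edgeR called 1 higher, against the same 4.58% of all genes: H2-Eb1, a β chain (1.17 ± 0.30, adjusted p = 0.0442). DESeq2 called 4 of the 7. At an unadjusted p under 0.05, 2405 of the 18685 genes were higher at that age, and 5 of the 7. H2-Aa, the most abundant of them, had 104, 45.0 and 48.0 CPM in wild type and 186 and 162 CPM in βEedKO, at 1.36 ± 0.39 (adjusted p = 0.0692).

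Of the ligands of the CSF1 receptor, Csf1 had 14.6, 29.6 and 28.1 CPM in wild type and 14.9 and 32.3 CPM in βEedKO at 25 weeks, at -0.10 ± 0.76 (adjusted p = 0.965). At 8 weeks it had 19.8, 57.1 and 86.4 CPM in wild type and 17.4, 110.3 and 99.6 CPM in βEedKO, at 0.47 ± 0.68 (adjusted p = 0.944). The libraries with high Csf1 were those with high interferon-induced genes in both genotypes. Of 2 ligand genes with enough reads, 0 were called at either age by edgeR or DESeq2 or passed at an unadjusted p under 0.05. Of 15 cytokines and chemokines 1 was called higher at 25 weeks (4.58% of all genes were), Cx3cl1, the ligand of the microglial and macrophage receptor CX3CR1. It had 18.1, 24.5 and 24.2 CPM in wild type and 82.0 and 98.1 CPM in βEedKO, at 1.95 ± 0.23 (adjusted p = 0.00128). Of the other complement genes, the C1 protease gene C1ra was called higher at 25 weeks (1.99 ± 0.42, adjusted p = 0.0194). Of 11 scavenging and lysosomal genes 1 was called higher, against the same 4.58%, the lysosomal protease Lgmn (1.12 ± 0.30, adjusted p = 0.0494), at a list median of 0.047.

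Calls among markers of other cells at 25 weeks are given beside the 4.58% of all genes called higher. At an unadjusted p under 0.05, 3791 of the 18685 genes passed at that age in either direction. Of 5 monocyte markers 1 was called higher, Ly6c2 (2.66 ± 0.61, adjusted p = 0.0280), and their summed level was 46.6 and 90.4 CPM in βEedKO against 8.05 to 24.2 CPM in wild type. At 8 weeks that sum was 84.4, 4.71 and 8.10 CPM in wild type and 14.2, 64.4 and 10.2 CPM in βEedKO, so single libraries of both genotypes were high. Of 7 mesenchymal markers 4 were called higher at 25 weeks, Pdgfra, Dcn, Col1a1 and Col1a2, and of 7 duct markers 2, Krt19 and Sox9. Of 8 β cell markers 7 were called lower, as were 2.02% of all genes. Of 8 T cell markers 0 were called by edgeR or DESeq2 and 3 passed at an unadjusted p under 0.05. All 8 were above 0 at a median of 2.69, and their sum was 24.6 and 16.6 CPM against 1.55 to 8.94 CPM. Of 6 B cell markers 5 were above 0 and Cd79a was called lower (-1.67 ± 0.36, adjusted p = 0.0215). Of 7 dendritic cell markers all 7 were above 0, and 0 were called by edgeR, 2 by DESeq2 and 3 at an unadjusted p under 0.05. Of the tested neutrophil (4), NK cell (2), mast cell (1), acinar (8), erythroid (5), other endocrine (6), interferon-induced (12) and lymph node (3) genes, 0 were called by edgeR or DESeq2 or passed at an unadjusted p under 0.05. Of 7 endothelial and 5 adipocyte genes edgeR called 0, with 3 and 1 at an unadjusted p under 0.05, and DESeq2 called 1 and 0. At 8 weeks edgeR called 0 of the 168 genes tested in the 23 lists, and DESeq2 called 10. At an unadjusted p under 0.05, where 1470 of the 18685 genes passed, 33 of the 168 did. How far these other cells carry Ptprc and Cd74 was not tested.

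Of the 13 genes named here as called at 25 weeks besides Ptprc and Cd74, the call of Cx3cl1 held under all 20 alternatives tried, at a log2 fold change of 1.82 to 2.24. Those of the other 12 kept their direction and were each lost under 4 (Sox9) to 14 (Lgmn) of the 20. Without βEedKO replicate 2 the calls of Cd14 (2.63), H2-Eb1 (1.11), Lgmn (1.08), C1ra (1.62) and Ly6c2 (2.07) were lost, and so they were without replicate 3, at 2.04, 1.21, 1.14, 2.27 and 3.07. With the replicate number as a block, Cd14 (2.62, adjusted p = 0.0533), H2-Eb1 (1.06, 0.0982), Lgmn (1.05, 0.108), C1ra (1.94, 0.0720), Ly6c2 (2.75, 0.0879), Krt19 (3.81, 0.133) and Pdgfra (2.53, 0.0906) were no longer called by edgeR. H2-Aa was called under 7 of the 20 alternatives, at 1.14 to 1.85 over all of them.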

How the data were processed

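RNA-seq of whole islets was analysed in 16 libraries of 6 groups, with a segmentation of wild-type islet chromatin. The authors deposited raw counts of read pairs per gene, made with TopHat 2.0.13 on GRCm38 and featureCounts (Subread 1.5.0-p1) on Gencode M9; the strand setting was not given in the sources used here. They deposited the segmentation as state letters (a category, not a score) of EpicSeg in bins of 200 bp, with replicates averaged. Columns not used: 0. Total counts were 4645393 to 22925359 per library.

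Here counts were tested in R 4.3.3 with edgeR 4.0.16 (TMM, filterByExpr, quasi-likelihood test, Benjamini-Hochberg adjustment over all genes, called at an adjusted p under 0.05). The 11 wild-type and βEedKO libraries made 1 fit (18685 genes), and all 16 made the fit for heterozygous islets (18828 genes). The SE was taken as the size of the log2 fold change over √F. DESeq2 1.42.0, other scalings, no filter, other controls, a replicate block and left-out libraries were tried. Fits were tested on simulated counts. P-values measure the spread between libraries. CPM use the scaling of the 16-library fit. Of 47937 identifiers, 47224 matched a later Gencode release of GRCm38, used for names, positions and exon lengths, and 713 did not.

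The 10 genes, the other 23 gene lists and the tests were chosen with earlier results of these data known. Named beside the 10 are, apart from some genes not reported here, the 10 genes most like their mean and, from each list, up to 4 called genes or the most abundant gene; for lists of other cell types mostly counts are given, and Irf8 and Lyz1 were named after their values were seen. Deviations from the group means correlated between wild-type and βEedKO libraries of 1 number and age (r = 0.457, 0.163, 0.176 and 0.255), but also between some of different numbers (up to 0.450), and no label says what a number marks. The blocked value is given where it changes a call. Single-cell counts and ChIP-seq tracks were not used here.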

Additional observations from a re-analysis of the deposited data

How the results depend on the processing

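At 25 weeks 2 of the 10 macrophage genes were called, and with library size alone 1, with the replicate block 0, with wild type and heterozygous libraries joined 5, and with 1 library left out 0 to 2. The median of the 10 was then 0.40 (without βEedKO replicate 2) to 1.71 (without replicate 3). Fold changes below 0 at that age were those of Lyz2 (-0.44 to 2.32 with 1 library left out) and C1qa (-0.11 to 0.72), below 0 without βEedKO replicate 2, and at -0.66 and -0.18 without the acinar-rich libraries, where 0 of the 10 were called. Csf1, at -0.10, was above 0 with library size alone (0.31), the replicate block (0.023), joined controls (0.015) and without the acinar-rich libraries (0.52), and -0.75 to 0.34 with 1 library left out. Genes called numbered 1234, against 2093 (DESeq2), 2649 (joined controls), 2515 (without both replicates 1 at 8 weeks), 137 (without the acinar-rich libraries) and 392 to 1609 with 1 library left out.

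At 8 weeks 0 of the 10 were called, 1 with DESeq2 (C1qb) and 1 with joined controls (Adgre1), and their median was 0.61 to 1.54 with 1 library left out. Genes called numbered 81, against 393 (DESeq2), 137 (no filter), 0 (replicate block), 503 (joined controls), 3 (without the acinar-rich libraries) and 18 to 135 with 1 library left out. For the difference between the ages they numbered 37, against 90 (all 16 libraries), 340 (DESeq2), 11 (library size alone), 73 (no filter), 2 (replicate block), 204 (joined controls), 59 (without both replicates 1), 2 (without the acinar-rich libraries) and 10 to 40.

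Library size alone moved the median log2 fold change of all genes to 0.27 at 25 weeks and 0.20 at 8 weeks. For wild type by age 0 genes were called, against 4 (all 16 libraries), 139 (DESeq2), 1 (library size alone), 8 (no filter), 1866 (without both replicates 1, with 1 of the 10, Cd74) and 0 to 5. For βEedKO by age 281 were called, against 473 (all 16 libraries), 960 (DESeq2, with 1 of the 10, Cd74), 168 (library size alone), 472 (joined controls), 2724 (without both replicates 1, with 1 of the 10, Cd74), 35 (without the acinar-rich libraries) and 36 to 386. For heterozygous islets 0 genes were called at 8 weeks, against 407 (DESeq2), 5 (no filter) and 0 to 601, and 0 at 25 weeks, against 3 (DESeq2). The cause of these differences was not tested.

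The replicate block left the called genes of the 10 at 0 at 8 weeks and changed no call of the 10 beyond those given. It could not be fitted between the ages or for heterozygous islets at 25 weeks, since numbers were matched within an age and too few were shared. By any annotated transcript start 6 of the 10, not 5, were in states N, O or P. Of 976 alternative values of single genes, medians and likeness, 824 kept their direction and side of the threshold or moved by less than the spread between libraries, 119 lost a call, 16 gained one, 6 moved and 11 changed sign. A call could be lost only by genes called in the main fit, while most of the 824 were values of genes not called there. With 2 or 3 libraries per group the intervals of Lyz2, Cd68 and C1qa included 0 at both ages and those of Adgre1 and Itgam at 25 weeks, and Itgam rests on few reads.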
